A study of Mus musculus with 24 samples.

Results

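Ccn1, Ccn4 and Ccn5 (older names Cyr61, Wisp1 and Wisp2) are the 3 genes of the matricellular CCN family that have a probe with a single gene symbol on the arrays of this series, of 5908 genes with a symbol in all. They were chosen by name, with 1 probe for each. Their levels were followed in lung and skin of mice that received local irradiation, with the change taken from the control of the same strain. Gene expression was measured on 24 two-colour Agilent mouse cDNA arrays, 12 for each tissue. Each tissue had 4 groups of 3 arrays. The lung groups were no irradiation and 1 h, 12 h and 72 h after 10 Gy to the thorax, and the skin groups were no irradiation and the same times after 30 Gy to the hind leg. Every group held 1 array of each of 3 inbred strains (A/J, then C57BL/6J, then C3H/HeMs in the order used below), and each array carried RNA pooled from 3 female mice aged 12 to 13 weeks. A group is therefore 3 pools of different strains with no second pool of any strain. A p-value thus reads how far the strains departed from a shared time course, mixed with the scatter of pools and arrays. The scatter of pools of the same strain and time, and that of single mice, was not observed. The other dye of every array held a common reference mixed from commercial RNA of 10 organs. All values below are log2 ratios of tissue over that reference, centred on the median of the array, so that 0 is the level at which the gene equals the reference relative to the middle probe.

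CCN proteins are secreted and bind to the extracellular matrix, where they act on cells through integrins and heparan sulfate proteoglycans and bind growth factors, and do not themselves build the matrix. Ccn1 is an immediate early gene of growth factor and mechanical signals and a textbook target of YAP and TEAD. Ccn4 was first described as a gene induced by Wnt1, and Ccn5, which lacks the C-terminal cystine knot module of its relatives, is known as an inhibitor of smooth muscle cell growth. The best known member, Ccn2 (connective tissue growth factor), and the members Ccn3 and Ccn6 had no probe with a single symbol and were not analysed here.

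The region before the Ccn1 start is shown because the family is usually described through the signals that act on this promoter. The window holds the 250 bases before the RefSeq start on the minus strand of GRCm38.p6, at chr3:145649986-145650235, written 5′ to 3′ in the direction of the gene. Capitals mark, in order, a match to the TEAD motif GGAATG on the opposite strand, a match to the cAMP response element core TGACGT on the opposite strand, and a TATA box TATAAA.
Ccn1: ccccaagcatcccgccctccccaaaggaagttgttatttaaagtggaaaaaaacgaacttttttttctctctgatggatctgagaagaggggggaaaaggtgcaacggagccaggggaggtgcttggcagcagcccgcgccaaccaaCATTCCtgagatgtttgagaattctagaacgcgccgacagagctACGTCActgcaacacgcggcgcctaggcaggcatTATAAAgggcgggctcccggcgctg
The 3 matches lay 103, 59 and 25 bases before the start and did not overlap. Searched on both strands, GGAATG occurred in 12.64% of the 32851 RefSeq promoter windows, TGACGT in 6.469% and TATAAA in 12.37%, so each match is common and is given as a description of the sequence.

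The tissues carried their labelled identity. In lung, 5 of 6 measured lung epithelium markers and 10 of 10 endothelium markers were above the reference in the control group, and in skin 9 of 9 epidermis markers were. Lung and skin differ in dye, dose and tissue at the same time, and these cannot be told apart. In lung, 4 arrays (12 h and 72 h of both A/J and C3H/HeMs) formed a set of their own, with correlations over all features of 0.89 to 0.94 among the 4, 0.90 to 0.96 among the other 8 and 0.80 to 0.89 between both sets. They also held 115 to 674 ratios of exactly 0, against 1 to 23 on the others, although no CCN value was at 0 or at a limit of the scale. These are bulk tissues, so fewer cells of a type and less RNA per cell cannot be told apart.

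Ccn1, the immediate early member, was low in lung at 1 h and high at 72 h. In the unirradiated lung its log2 ratio was 0.44 for A/J, 0.47 for C57BL/6J and 0.98 for C3H/HeMs. At 1 h it was 0.02, -0.30 and 0.18 in the same order, at 12 h 0.09, 0.22 and 0.61, and at 72 h 1.01, 1.06 and 1.15. All 3 values at 1 h lay below all 3 controls, and all 3 values at 72 h lay above the controls and above every value at 1 h and 12 h. Of all features, 3.05% were placed below control in this way at 1 h and 7.15% above it at 72 h, so such a separation was not rare.

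The group means for Ccn1 in lung were 0.63 ± 0.30 in controls, -0.04 ± 0.25 at 1 h, 0.31 ± 0.27 at 12 h and 1.07 ± 0.07 at 72 h (SD, n = 3 in each). The change at 1 h was -0.66 ± 0.14 (SE), a level 1.58-fold below control, and was negative in 3 of 3 strains (-0.42, -0.77 and -0.80), as it was for 14.9% of features. It ranked 8th of 8750 features by p, but did not pass limma's test after Benjamini-Hochberg adjustment over all features (adjusted p = 1). In that comparison 1 feature passed, 0.0114% of those tested. At 12 h the change was -0.32 ± 0.14 (adjusted p = 0.413), and at 72 h it was 0.45 ± 0.14 (adjusted p = 0.349), with 0.57, 0.59 and 0.18 for A/J, C57BL/6J and C3H/HeMs. None of the changes of Ccn1 from control passed at any time.

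The widest movement of Ccn1 in lung lay between 1 h and 72 h, a contrast that was added after these values had been seen. The level was 1.11 ± 0.14 higher at 72 h, or 2.16-fold, with differences of 0.99, 1.36 and 0.97 for A/J, C57BL/6J and C3H/HeMs. It ranked 4th by p and stood just outside the threshold of 0.05 (limma, adjusted p = 0.0568), where 0.0229% of features passed. Over 9 alternatives the adjusted p ran from 0.0308 to 0.563 and passed in 2, quantile scaling (0.0308) and each probe kept as its own feature (0.0487). It passed in 0 of 12 fits without 1 array (0.0884 to 0.376). The A/J and C3H/HeMs arrays at 72 h belong to the lung set that stood apart, and no 1 h array does. With that set as a factor, 0 features passed in this contrast. From 12 h to 72 h Ccn1 differed by 0.77 ± 0.14 (adjusted p = 0.334), rank 11 of the comparison. There 0 features (0%) passed in limma, against 509 below 0.05 before adjustment.

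**Figure D1:**
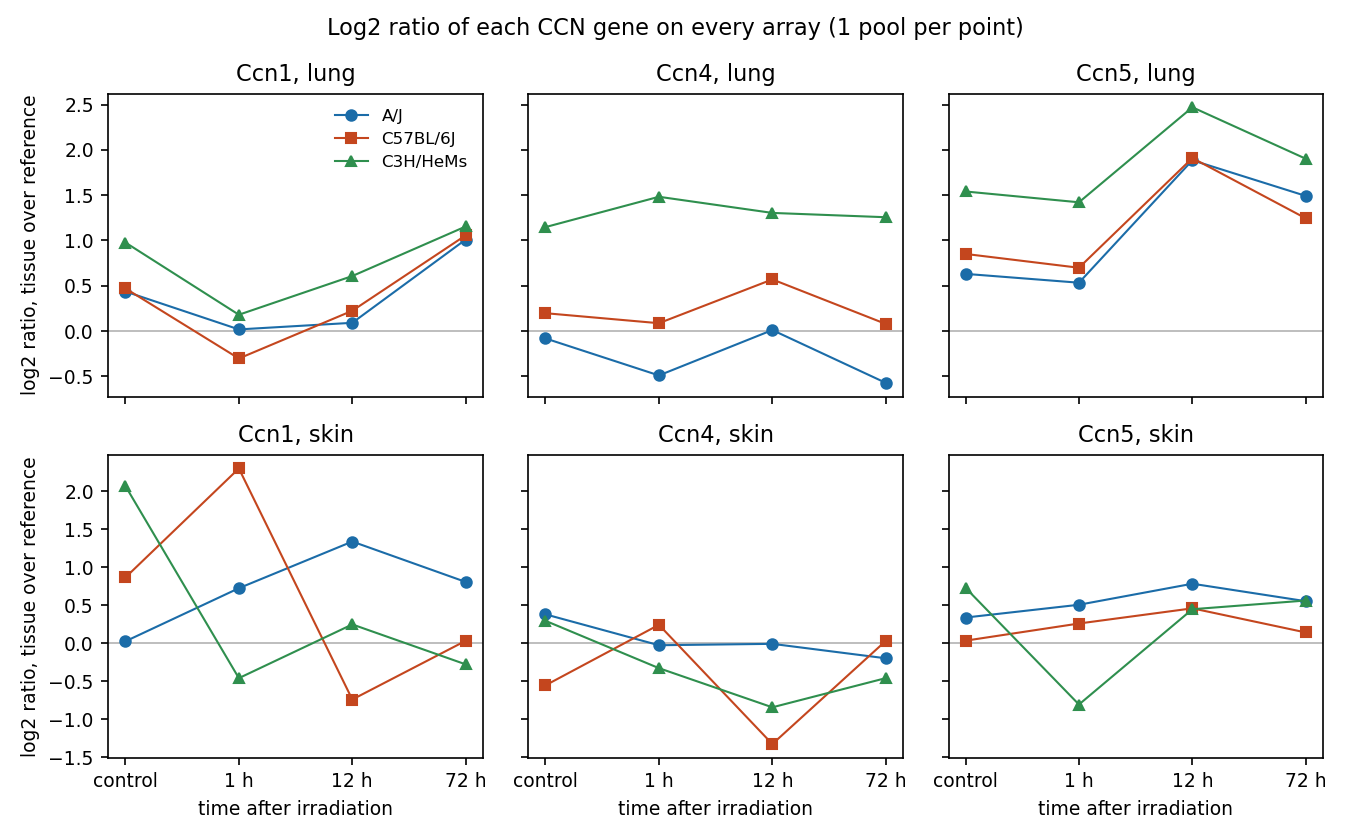
Log2 ratio of tissue over reference for Ccn1, Ccn4 and Ccn5 on every array, lung in the upper panels and skin in the lower; each point is 1 pool of 3 mice, lines join the arrays of a strain and the time axis is categorical, not to scale. In lung the strains moved together for Ccn1 (lowest at 1 h in C57BL/6J, -0.30, and 1.01 to 1.15 at 72 h) and for Ccn5 (1.89 to 2.47 at 12 h), and in skin Ccn1 ran from -0.74 to 2.30 with a different order in each strain.

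Ccn4, the Wnt1-induced member, differed in lung by strain and not measurably by time. Its log2 ratio in the unirradiated lung was -0.08 for A/J, 0.20 for C57BL/6J and 1.15 for C3H/HeMs. At 1 h the values were -0.49, 0.09 and 1.48, at 12 h 0.01, 0.57 and 1.30, and at 72 h -0.57, 0.08 and 1.26. All 4 C3H/HeMs arrays were above all 8 others, and all 4 A/J arrays were below all 8 others, which also orders the C57BL/6J arrays between them. Of all features, 0.731% had the C3H/HeMs arrays above the rest and 0.366% had the A/J arrays below the rest.

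Over the 4 arrays of each strain, the lung level of Ccn4 was -0.28 ± 0.29 for A/J, 0.23 ± 0.23 for C57BL/6J and 1.30 ± 0.14 for C3H/HeMs (SD, n = 4). Ccn4 passed the F test over strains in limma (F = 59.2, adjusted p = 0.00299), as did 2.95% of features. C3H/HeMs was 1.58 ± 0.15 above A/J, or 2.99-fold (limma, adjusted p = 0.00402). That was the 3rd smallest p of 8750, in a comparison where 0.423% of features passed. It was 1.06 ± 0.15 above C57BL/6J, or 2.09-fold (adjusted p = 0.0109), where 1.82% passed. C57BL/6J stood 0.52 ± 0.15 above A/J and did not pass (adjusted p = 0.087), where 3.68% did, so these neighbours in the order were not separated by the test.

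The strain difference of Ccn4 was already present without irradiation, where C3H/HeMs exceeded the other strains by more than the spread of either over time. Without the 4 lung arrays that stood apart, C3H/HeMs was 1.60 above A/J (adjusted p = 0.0672) and 1.17 above C57BL/6J (adjusted p = 0.143), so the sizes stayed while both calls ended. With the array set as a factor the difference from C57BL/6J was 1.16 (adjusted p = 0.0511). It was also lost without the C57BL/6J 72 h array (1.07, adjusted p = 0.0529) or the C3H/HeMs 72 h array (1.00, adjusted p = 0.065). The difference from A/J passed without any 1 array, but not with the C57BL/6J strain left out (1.58, adjusted p = 0.112).

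The fibroblast marker list, 9 of 14 genes measured, had a mean log2 ratio of -0.28 for A/J lung, -0.01 for C57BL/6J and 0.05 for C3H/HeMs, the same order as Ccn4 over a smaller range. Of these 9 markers, 1 passed the strain test that 2.95% of all features passed, Mfap5, a microfibril protein, which was 1.11 ± 0.17 higher in C3H/HeMs than in A/J (limma, adjusted p = 0.0337). The smooth muscle and pericyte list, with 10 of 12 measured, was at -0.27, -0.00 and -0.27 and had no member that passed. The order was not particular to fibroblast markers. The T and NK cell list, with 11 of 19 measured, was at -0.80, -0.71 and -0.30, and 3 members passed the strain test. The collagen and elastic fibre list, with 21 of 32 measured, was at -0.09, -0.05 and 0.07, and 2 members passed. The part of these cell types in the Ccn4 difference was not tested.

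Against control, Ccn4 in lung changed by -0.06 ± 0.17 at 1 h, 0.21 ± 0.17 at 12 h and -0.17 ± 0.17 at 72 h, with adjusted p of 1, 0.582 and 0.665 in limma. The 95% intervals of these changes ran from -0.45 to 0.33 at 1 h, from -0.18 to 0.59 at 12 h and from -0.55 to 0.22 at 72 h. The 12 h change was positive in all 3 strains (0.09, 0.37 and 0.16), as for 16.8% of features.

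Ccn5, the member without the cystine knot module, rose in the irradiated lung at 12 h. In unirradiated lung its log2 ratio was 0.63 for A/J, 0.85 for C57BL/6J and 1.54 for C3H/HeMs. At 1 h it was 0.53, 0.70 and 1.42, at 12 h 1.89, 1.91 and 2.47, and at 72 h 1.49, 1.24 and 1.90. Every 12 h array was above every control array and every 1 h array, and the 72 h values fell between those of 12 h and those of control within each strain. Of all features, 6.39% had all 12 h arrays above all controls and 9.09% had them above all 1 h arrays.

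The group means for Ccn5 in lung were 1.01 ± 0.47 in controls, 0.88 ± 0.47 at 1 h, 2.09 ± 0.33 at 12 h and 1.55 ± 0.33 at 72 h (SD, n = 3). The SD within a group was mainly the offset between strains, while the rise from each strain's own control at 12 h was 1.25 for A/J, 1.06 for C57BL/6J and 0.93 for C3H/HeMs. Ccn5 was 1.08 ± 0.14 higher at 12 h than in controls, or 2.11-fold (limma, adjusted p = 0.022). It was among the 10 features that passed, all of them higher, which is 0.114% of those tested. Against 1 h it was 1.20 ± 0.14 higher, or 2.30-fold (adjusted p = 0.0231), and was 1 of 6 features that passed (0.0686%).

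At 1 h Ccn5 differed from control by -0.12 ± 0.14 (adjusted p = 1). At 72 h it was 0.54 ± 0.14 above control (adjusted p = 0.312), with 0.86, 0.39 and 0.36 for A/J, C57BL/6J and C3H/HeMs, and it did not pass in a comparison where 0.114% did. From 12 h to 72 h the difference was -0.54 ± 0.14 (adjusted p = 0.594), negative in 3 of 3 strains. The mean of the irradiated times was 0.50 ± 0.11 above control (adjusted p = 0.476), where 0.0914% of features passed.

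The size of the Ccn5 rise at 12 h stayed between 0.89 and 1.16 under every alternative run, but the call against control depended on the fit. It was lost without the strain as a block (1.08, adjusted p = 0.656), with only the control and 12 h arrays in the fit (adjusted p = 0.655), with the array set as a factor (1.01, adjusted p = 0.442), and without the 4 lung arrays that stood apart (1.07, adjusted p = 0.384), where the 12 h group was the C57BL/6J array alone. It passed with the A/J 1 h or A/J 72 h array left out and was lost without any 1 of the other 10 lung arrays, at adjusted p up to 0.163. The rise over 1 h passed with the A/J or C57BL/6J control or the A/J 72 h array left out and was lost without any 1 of the other 9, at adjusted p up to 0.208. Within the larger array set only C57BL/6J has both times, with 1 array each and so no test, and its 12 h value was 1.06 above its control.

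Lists of cell type markers were read beside this rise, and 0 members of the lists given here passed limma in lung at 12 h. The B cell list, 10 of 14 genes measured, had a mean log2 ratio of -0.56 to -0.10 in control lungs and -1.09 to -0.90 at 12 h, with 4 members below 0.05 before adjustment. The list of T and NK cells, with 11 of 19 measured and 4 below 0.05, ran from -0.63 to -0.23 in controls and from -1.35 to -0.42 at 12 h. Epidermis markers, 9 of 22 measured and 2 below 0.05, ran from -0.98 to -0.71 and from -1.53 to -0.89. Fibroblast markers ran from -0.15 to 0.06 in controls and from -0.49 to -0.01 at 12 h, and smooth muscle and pericyte markers from -0.23 to -0.08 and from -0.43 to -0.10, each with 1 member below 0.05. In the other direction, 10 of 14 measured skeletal muscle markers and 5 of 6 lung epithelium markers had a change above 0. The median changes of these lists were 0.18 and 0.27, against 0.07 over all features, with 5 and 1 members below 0.05. Before adjustment 12.1% of all features were below 0.05 in this comparison. The part of cell composition in the Ccn5 rise was not tested.

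**Figure D2:**
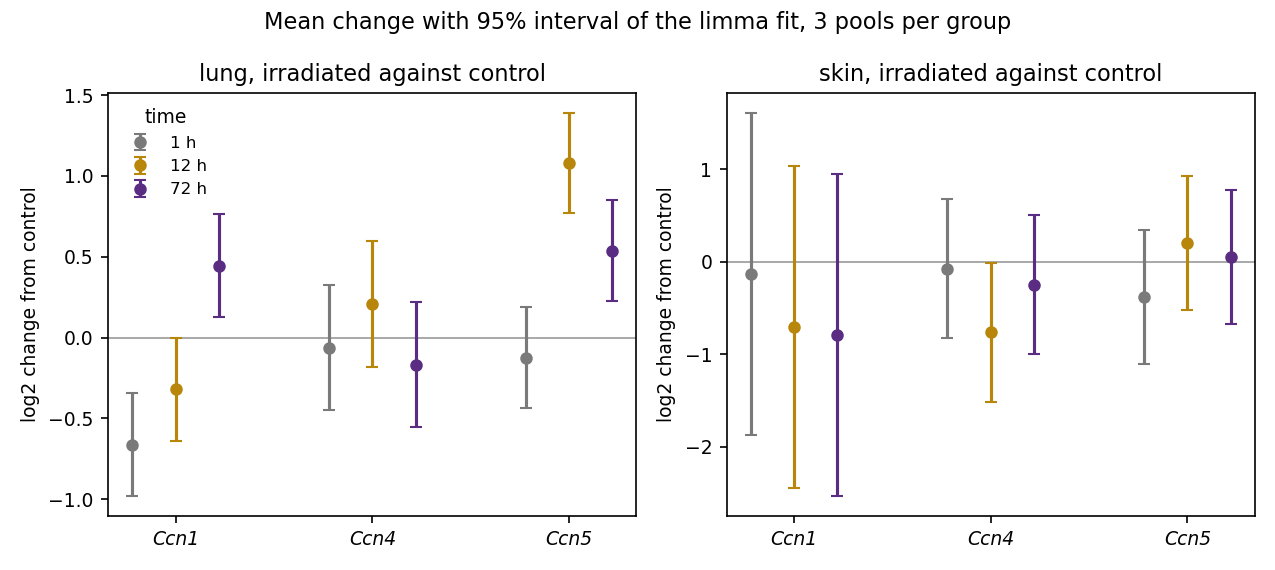
Change of Ccn1, Ccn4 and Ccn5 from control at 1 h, 12 h and 72 h in lung (left) and skin (right), as log2 with the 95% interval of the limma fit, 3 pools per group; the vertical axes differ. In lung Ccn5 at 12 h is at 1.08, with an interval from 0.77 to 1.39, and in skin the Ccn1 interval at 1 h runs from -1.87 to 1.61.

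Ccn5 also differed between strains in lung. Over 4 arrays its level was 1.14 ± 0.66 for A/J, 1.18 ± 0.54 for C57BL/6J and 1.83 ± 0.47 for C3H/HeMs (SD, n = 4), and most of that spread was the change with time. It passed the F test over strains in limma (F = 21.8, adjusted p = 0.0287). C3H/HeMs was 0.66 ± 0.12 above C57BL/6J, or 1.58-fold (adjusted p = 0.0333), and 0.70 ± 0.12 above A/J, which missed the threshold (adjusted p = 0.0531). C57BL/6J and A/J differed by 0.04 ± 0.12 (adjusted p = 0.853), with an interval from -0.23 to 0.31.

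These strain calls were close to the threshold. The difference from A/J passed with no centring (0.74, adjusted p = 0.0316), with quantile scaling (0.69, adjusted p = 0.0217) and with 2 further settings, 4 of 7 in all, with adjusted p up to 0.0996 in the others. It passed in 0 of 12 fits without 1 array (adjusted p = 0.0593 to 0.176). The difference from C57BL/6J passed with the A/J 12 h or the A/J 72 h array left out and was lost without any 1 of the other 10 lung arrays, at adjusted p up to 0.136. The F test passed without the A/J 72 h array and was lost without any 1 of the other 11. C3H/HeMs had the highest lung mean for each of the 3 CCN genes.

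Ccn1 in lung was at 0.39 ± 0.45 for A/J, 0.36 ± 0.56 for C57BL/6J and 0.73 ± 0.43 for C3H/HeMs (SD, n = 4) and did not pass the strain test (F = 5.62, adjusted p = 0.161). Whether the response to irradiation differed between strains was tested with an interaction term, for which 1 control array per strain was available. None of the 3 genes passed it in lung (limma, adjusted p = 0.94 for each), where 0.0229% of features did.

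**Figure D3:**
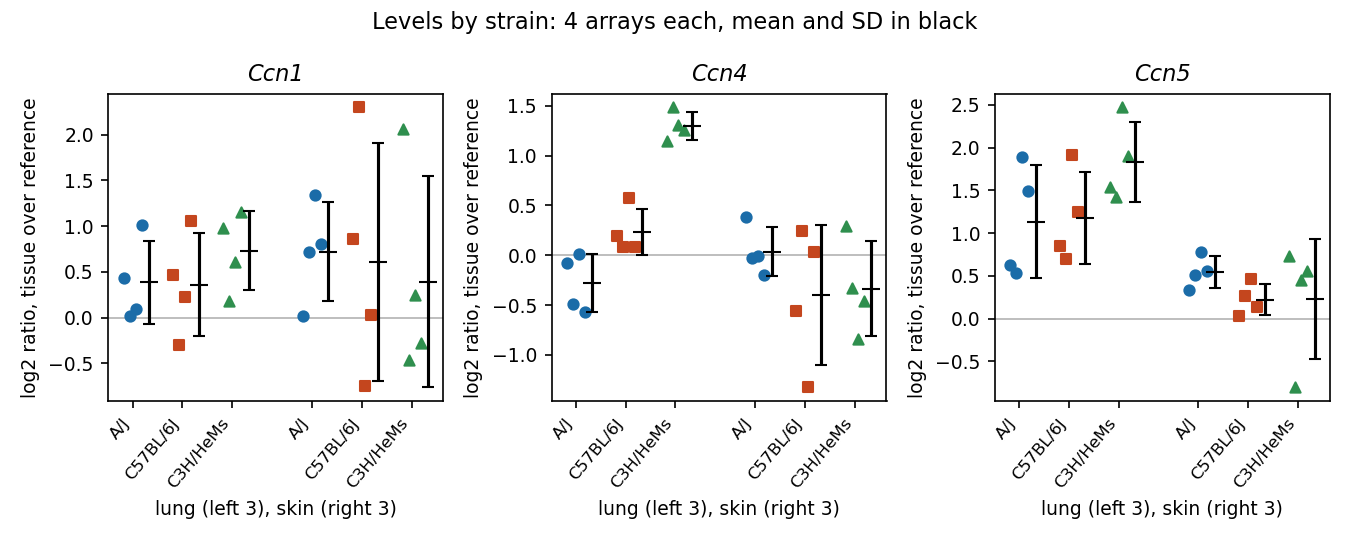
Log2 ratio of tissue over reference for Ccn1, Ccn4 and Ccn5 by strain, lung left and skin right in each panel; points are arrays in the order control, 1 h, 12 h and 72 h, and black bars are the mean and SD of 4 arrays. The lung arrays of Ccn4 separate by strain, with C3H/HeMs at 1.15 to 1.48 and A/J at -0.57 to 0.01, while the skin arrays of the strains overlap.

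In skin, which received the higher dose, no change of the 3 CCN genes passed the test at any time. For all 3 comparisons with control 0 features passed in limma (0% of those tested), while 382, 587 and 647 were below 0.05 before adjustment at 1 h, 12 h and 72 h. The CCN genes were more variable between arrays in skin: the SE of a change was 0.78 for Ccn1, 0.34 for Ccn4 and 0.32 for Ccn5, against 0.14, 0.17 and 0.14 in lung. A change of 1.08, the size of the Ccn5 rise in lung, would exceed each of these SEs, but that does not make it a call. At 12 h in skin the p53 targets had a median change of 1.07, and 0 of the 12 measured passed. The lack of a call in skin therefore does not show that the CCN genes stayed unchanged.

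Ccn1 in skin went in different directions in the strains. In unirradiated skin its log2 ratio was 0.02 for A/J, 0.86 for C57BL/6J and 2.07 for C3H/HeMs. At 1 h the values were 0.72, 2.30 and -0.46, at 12 h 1.34, -0.74 and 0.25, and at 72 h 0.80, 0.03 and -0.28. The C3H/HeMs control and the C57BL/6J 1 h array were the highest, and the groups overlapped at every time.

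From its own control, Ccn1 was higher at all 3 times in A/J skin (0.70, 1.31 and 0.78) and lower at all 3 in C3H/HeMs skin (-2.53, -1.82 and -2.35). In C57BL/6J it was 1.43 higher at 1 h, then 1.60 lower at 12 h and 0.83 lower at 72 h. The mean changes were -0.13 ± 0.78 at 1 h, -0.70 ± 0.78 at 12 h and -0.80 ± 0.78 at 72 h, with limma's adjusted p of 1.00, 0.932 and 0.755. The interaction of strain and irradiation did not pass in limma (adjusted p = 0.999), where 0 features did and 295 were below 0.05 before adjustment. Each of the C3H/HeMs changes rests on a single control pool, at 2.07. Without that array the mean changes at 1 h, 12 h and 72 h were 0.71, 0.14 and 0.04, all of the opposite sign, so the direction of Ccn1 in skin is not settled by these arrays.

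The skeletal muscle list had a wide range in C3H/HeMs skin. Its mean over 14 of 22 measured genes was 0.87 in the C3H/HeMs control, 0.52 at 1 h, -1.48 at 12 h and -1.28 at 72 h, against -1.51 to -0.89 in A/J and -0.80 to -0.41 in C57BL/6J. The part of muscle tissue in the skin values was not tested.

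Ccn4 was lower in all 3 strains of irradiated skin at 12 h, as were 15.7% of features. Its log2 ratio was 0.38 for A/J, -0.56 for C57BL/6J and 0.29 for C3H/HeMs controls and -0.01, -1.33 and -0.84 at 12 h. At 1 h it was -0.03, 0.24 and -0.33, and at 72 h -0.20, 0.03 and -0.46. The C57BL/6J control lay below the A/J 12 h array, so the groups overlapped.

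The change of Ccn4 in skin at 12 h was -0.77 ± 0.34, or 1.70-fold below control, with an interval from -1.52 to -0.01 (limma, adjusted p = 0.734). At 1 h it was -0.08 ± 0.34 and at 72 h -0.25 ± 0.34, with adjusted p of 1.00 and 0.814. The changes of the strains at 12 h were -0.39, -0.77 and -1.14 for A/J, C57BL/6J and C3H/HeMs, while at 72 h C57BL/6J stood 0.58 above its control and the other strains 0.58 and 0.75 below theirs.

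Ccn5 in skin moved farthest from its control on 1 array. In A/J and C57BL/6J it was above control at each time, most at 12 h. Its log2 ratio was 0.34 for A/J, 0.03 for C57BL/6J and 0.73 for C3H/HeMs controls. At 1 h it was 0.50, 0.26 and -0.81, at 12 h 0.78, 0.46 and 0.45, and at 72 h 0.55, 0.14 and 0.56. The C3H/HeMs 1 h array was the only skin array with Ccn5 below the reference.

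The mean changes of Ccn5 in skin were -0.38 ± 0.32 at 1 h, 0.20 ± 0.32 at 12 h and 0.05 ± 0.32 at 72 h, with limma's adjusted p of 1.00, 0.951 and 0.97. At 12 h A/J and C57BL/6J stood 0.44 and 0.43 above their controls and C3H/HeMs 0.28 below. The interval at 12 h ran from -0.53 to 0.92. It overlapped that of the lung rise, from 0.77 to 1.39, but did not reach the lung estimate of 1.08. Overlap of intervals is no test of the difference between the tissues, which is given below.

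The strain order of Ccn4 in lung was not found in skin. The skin means of Ccn4 were 0.04 ± 0.24 for A/J, -0.40 ± 0.70 for C57BL/6J and -0.34 ± 0.47 for C3H/HeMs (SD, n = 4). Those of Ccn5 were 0.54 ± 0.18, 0.22 ± 0.18 and 0.23 ± 0.70, and those of Ccn1 0.72 ± 0.54, 0.61 ± 1.30 and 0.39 ± 1.15. No CCN gene passed the F test over strains in skin (limma, adjusted p = 0.93, 0.541 and 0.654 for Ccn1, Ccn4 and Ccn5), where 0.377% of features did. Whether the strain effect of Ccn4 differs between tissues was not tested.

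Over all arrays of a tissue, each gene covered a range of its own. In lung Ccn5 was above the reference on 12 of 12 arrays (0.53 to 2.47), Ccn1 on 11 (-0.30 to 1.15) and Ccn4 on 9 (-0.57 to 1.48). In skin Ccn5 was above it on 11 of 12 arrays (-0.81 to 0.78), Ccn1 on 9 (-0.74 to 2.30) and Ccn4 on 4 (-1.33 to 0.38). These are ratios to a mixed reference, so they do not rank the genes by abundance.

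Among controls, Ccn5 was 0.64 ± 0.26 lower in skin than in lung, or 1.56-fold (limma, adjusted p = 0.0407), in a comparison where 60% of features passed. The call was lost without the strain block (adjusted p = 0.102), without the 4 lung arrays that stood apart (adjusted p = 0.0742), and without any 1 of the control arrays other than the C3H/HeMs skin control, at adjusted p up to 0.176. Ccn4 differed by -0.38 ± 0.28 (adjusted p = 0.245) and Ccn1 by 0.36 ± 0.62 (adjusted p = 0.633). Dose does not enter these controls, but dye and tissue cannot be told apart.

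The response itself was compared between the tissues in a fit of all 24 arrays. At 12 h the skin response minus the lung response was -0.97 ± 0.39 for Ccn4 (limma, adjusted p = 0.566) and -0.88 ± 0.36 for Ccn5 (adjusted p = 0.571). For Ccn1 the widest difference was -1.25 ± 0.87 at 72 h (adjusted p = 0.517). At both times 0 features passed, and 737 at 12 h and 1121 at 72 h were below 0.05 before adjustment. The lung rise of Ccn5 is thus not shown to be absent from skin.

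The signals and partners around the CCN genes were read from lists of genes. Among CCN receptors, which are integrins and endocytic receptors, 11 of 17 were measured and 0 passed limma against control in lung or skin at any time; before adjustment 0, 1 and 2 of them were below 0.05 in lung and 1, 2 and 0 in skin. Over all features 2.24%, 12.1% and 12.4% were below 0.05 before adjustment at 1 h, 12 h and 72 h in lung and 4.37%, 6.71% and 7.39% in skin, and the counts of the lists that follow stand beside these shares. The median change of the receptors in lung was 0.07, 0.21 and 0.30 at 1 h, 12 h and 72 h, against -0.01, 0.07 and 0.05 over all features. Itgb3, the beta chain of an integrin that binds Ccn1, stood at 0.74 ± 0.31 in lung at 72 h (adjusted p = 0.386), and Itgam, the alpha chain of a leukocyte integrin, at 1.42 ± 0.45 in skin at 12 h (adjusted p = 0.604).

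The list of YAP and TEAD targets leaves out Ccn1, itself such a target. Of its genes, 11 of 25 were measured, and 0 passed against control at any time in limma. In lung 2, 0 and 3 of them had an unadjusted p under 0.05 at 1 h, 12 h and 72 h, and in skin 0, 2 and 2. Their median change in lung was -0.02, 0.19 and 0.13 at these times, against -0.01, 0.07 and 0.05 over all features. Of the 11, 5, 10 and 8 were above 0. Amotl2, a scaffold of the Hippo pathway and itself such a target, was at -0.62 ± 0.15 at 1 h, 0.31 ± 0.15 at 12 h and 0.39 ± 0.15 at 72 h in lung (limma, adjusted p = 1, 0.441 and 0.365). That is near the Ccn1 change at 1 h and above it at 12 h. The list as a whole did not share the low value of Ccn1 at 1 h. At 12 h, when Ccn1 was at -0.32, most of the list was above 0.

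In the strain test in lung, 2 of the 11 YAP and TEAD targets passed, where 2.95% of all features did. Fjx1, a secreted regulator of planar polarity, was 1.59 ± 0.12 lower in C3H/HeMs than in A/J (limma, adjusted p = 0.00206). Ankrd1, a nuclear ankyrin repeat protein of muscle, was 1.79 ± 0.21 higher in C3H/HeMs than in C57BL/6J (adjusted p = 0.00457). These targets took different strain orders from each other, and neither took that of Ccn4 in lung.

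Of SRF targets, immediate early genes and actin genes, 15 of 30 were measured and 0 passed limma against control at any time, with 1, 2 and 0 below 0.05 before adjustment in lung and 1, 2 and 2 in skin. At 1 h in lung, when Ccn1 was lowest, Nr4a1, an orphan nuclear receptor, was at 0.59 ± 0.24, Junb at 0.38 ± 0.17 and Fos at 0.28 ± 0.18 (limma, adjusted p = 1 for each), the latter being subunits of AP-1. These 3 had the smallest p of the list. The list as a whole had a median of -0.01 with 7 of 15 above 0, and the median over all features was also -0.01. At 12 h in lung Nr4a1 was at -0.93 ± 0.24 (adjusted p = 0.302).

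Of Wnt ligands, receptors and targets, 29 of 52 were measured and 0 passed limma against control, while before adjustment 1, 5 and 4 were below 0.05 in lung and 3 at each time in skin. The list had a median change in lung of -0.04, 0.02 and -0.01 at 1 h, 12 h and 72 h. Axin2, a feedback target of Wnt signalling, was at -0.39 ± 0.17 in lung at 1 h (adjusted p = 1). In the lung strain test 2 of the 29 passed, beside 2.95% of all features. Wnt4 was 1.13 ± 0.19 higher in C57BL/6J than in A/J (limma, adjusted p = 0.022), and Wif1, a secreted Wnt inhibitor, was 0.99 ± 0.18 lower there (adjusted p = 0.0273). Against C3H/HeMs, the strain in which Ccn4 was high, neither passed: Wnt4 was at 0.49 ± 0.19 over A/J (adjusted p = 0.391) and Wif1 at -0.67 ± 0.18 (adjusted p = 0.185).

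Of the TGF-beta pathway 14 of 27 genes, and of other matricellular proteins 10 of 21, were measured, and 0 passed limma against control. Before adjustment 1, 2 and 1 TGF-beta genes and 1, 0 and 3 matricellular genes were below 0.05 in lung. In skin 0, 2 and 3 TGF-beta genes and 0, 4 and 2 matricellular genes were. At 12 h in skin the matricellular list had a median change of -0.32, with 3 of 10 genes above 0, against -0.03 over all features. At 72 h in skin the TGF-beta list had a median of -0.28, with 5 of 14 above 0, against -0.01 over all features. In lung at 72 h the matricellular list had a median change of 0.44, with 8 of 10 genes above 0, against a median of 0.05 over all features. Its members with the smallest p were Fbln5, a fibulin of elastic fibres, at 0.61 ± 0.20 (limma, adjusted p = 0.349), and Thbs2, thrombospondin 2, at 0.49 ± 0.17 (adjusted p = 0.354). At 12 h, when Ccn5 rose, the median of that list was 0.05 and Tnc, tenascin C, stood at -0.60 ± 0.35 (adjusted p = 0.474). In the lung strain test 1 of the 14 TGF-beta genes and 0 of the 10 matricellular genes passed, beside 2.95% of all features. By pairs, 1 TGF-beta gene passed as lower in C3H/HeMs than in A/J and 1 as lower than in C57BL/6J. Among matricellular genes 1 passed as lower in C57BL/6J than in A/J. Of collagens and elastic fibre genes, 21 of 32 were measured and 0 passed limma against control. Before adjustment 2, 2 and 5 of them were below 0.05 in lung and 0, 3 and 2 in skin, and their lung median was 0.01 at 12 h.

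Targets of p53 gave the scale of the radiation response in the same arrays. Of 12 measured genes of 26, 1 rose in lung at 1 h and 3 at both later times, where 0.0114%, 0.114% and 0.114% of all features passed. In skin 0 passed limma, with 5, 6 and 7 below 0.05 before adjustment. Cdkn1a, the p21 inhibitor of the cell cycle, rose by 2.24 ± 0.20, 2.71 ± 0.20 and 2.54 ± 0.20 at these times (limma, adjusted p = 0.0133, 0.00158 and 0.00346). The 12 h value of Ccn5 was below that of Cdkn1a on this scale, and at 1 h, when Cdkn1a passed, Ccn5 did not.

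The genes whose values ran most like each CCN gene were found by the Pearson correlation over the 12 arrays of a tissue, after subtracting the mean of each strain, among 5716 genes. These correlations are descriptions over arrays that share the strain pools, the reference and the time course. For Ccn5 in lung they were Dcxr, a carbonyl reductase, with r = 0.97 (Spearman's rho 0.92), Tnfrsf1a, a TNF receptor (0.96), Exoc4, an exocyst subunit (0.95), Pros1, protein S (0.95), and Ctsf, a lysosomal protease (0.95). Without the 2 arrays farthest from the median of Ccn5, r for Dcxr was 0.98. Of these 5 genes, Exoc4 rose by 1.93 ± 0.15 and Ctsf by 1.69 ± 0.16 at 12 h (limma, adjusted p = 0.00158 and 0.00331), while Dcxr was at 0.79 ± 0.14 (adjusted p = 0.116). The genes were picked for running like Ccn5 on these same arrays, so a rise at 12 h is in part built into the choice.

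**Figure D4:**
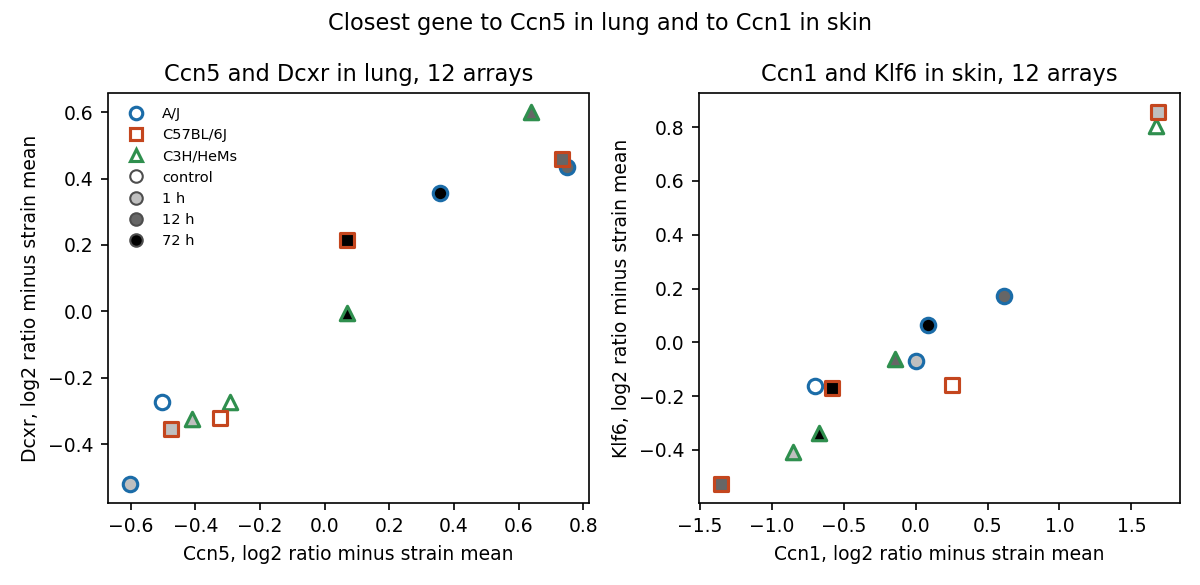
Values after subtracting the strain mean, on the log2 scale, for Ccn5 against Dcxr in lung (left) and Ccn1 against Klf6 in skin (right); each point is 1 array, its shape and edge colour the strain and its fill the time, 12 arrays per panel. In lung the 12 h arrays are at the upper right and the control and 1 h arrays at the lower left (r = 0.97), and in skin the C57BL/6J 1 h array and the C3H/HeMs control form the upper end (r = 0.97).

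For Ccn1 the closest genes in lung were Ccr2, a chemokine receptor of monocytes, with r = 0.85 (rho 0.80), and Nab2, a corepressor of EGR factors, with r = 0.84. In skin the closest was Klf6, a zinc finger factor, with r = 0.97 (rho 0.93), followed by Slc23a2, Slc24a3, Actr8 and Mcl1 at 0.88 to 0.89. Without the 2 arrays farthest from the median of Ccn1, Klf6 kept r = 0.90 while Mcl1 fell to 0.65. Slc24a3 fell to 0.60.

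For Ccn4 the closest genes were Shisal1 (r = 0.92) and Psme3, a proteasome activator (0.88), in lung, and Abcg4, a sterol transporter, in skin (0.95). For Ccn5 in skin the closest were Cpne7 and Cenpx, both at 0.88, of which Cenpx fell to 0.32 without the 2 farthest arrays. Pdgfra, a receptor that marks fibroblasts, was at 0.83. No gene was among the 5 closest to a CCN gene in both tissues.

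The CCN genes did not follow each other closely. In lung r was 0.22 between Ccn1 and Ccn5, -0.40 between Ccn1 and Ccn4 and 0.37 between Ccn4 and Ccn5, over 12 arrays after subtracting strain means. Without the 2 arrays farthest from the median of Ccn5, the values with Ccn5 were 0.53 for Ccn1 and -0.22 for Ccn4, the latter a change of sign. With the 2 arrays farthest from the median of Ccn1 left out instead, r between Ccn1 and Ccn5 was 0.12. In skin the values were 0.37, 0.62 and -0.06, and the 0.62 between Ccn1 and Ccn4 fell to 0.19 without the 2 arrays farthest from the median of Ccn1.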

How the data were processed

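The authors deposited log10 ratios of Cy5 over Cy3, made with Agilent Feature Extraction per the submitters' processing notes and limited to ±2; its version and spot filters are not given in the sources used here. Per the labels, Cy3 marked the lung RNA and Cy5 the skin RNA, so lung values were turned in sign. As deposited, lung and skin arrays correlated at -0.52 to -0.12, and after turning at 0.12 to 0.52. Ratios were multiplied by 3.32 to log2 and centred on each array's median. Of 9275 probes 6433 had 1 gene symbol, 381 several and 2461 none, and averaging probes gave 8750 features. The number of arrays limits the precision.

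All fits were made with limma 3.58.1 (R 4.3.3). In either tissue, 4 groups with strain as a block were fitted to 12 arrays (6 residual degrees of freedom), and 24 arrays together for tissue comparisons (12). The strain tests used the same fit, p-values were adjusted over all features by Benjamini-Hochberg at 0.05, and the interaction of strain and irradiation had its own fit (4). The fits were tested on simulated data that held no strain effect and no separate array set, so that check does not bear on either. Replicate numbers stand for strains per the labels, which is where the pairing comes from; deviations of arrays of the same strain correlated at -0.05 to 0.71 in lung and -0.05 to 0.68 in skin.

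Members and gene lists were chosen with earlier results of these data known. CCN genes are always named; of each list, genes that passed, or up to 4 with the smallest p; and the 5 genes most like each member per tissue, passing over clone names. Some list members that passed are counted without a name. Mean values of marker lists and the contrast of 72 h against 1 h were given outside this rule.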

Additional observations from a re-analysis of the deposited data

Results flagged for a closer look

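The changes of Ccn4 at 12 h had opposite signs in the tissues, and neither passed limma (lung 0.21 ± 0.17, adjusted p = 0.582, and skin -0.77 ± 0.34, adjusted p = 0.734). It is listed because every strain had one sign in lung and the other in skin. Ccn4 was above the same strain's control in all 3 lungs (0.09, 0.37 and 0.16) and below it in all 3 skins (-0.39, -0.77 and -1.14). Of all features, 16.8% were higher in all 3 lungs, 15.7% were lower in all 3 skins, and 2.17% were both. Counted in either direction, 2.99% had all 3 strains one way in lung and all 3 the other way in skin. The skin response minus the lung response was -0.97 ± 0.39 on the log2 scale, with an adjusted p of 0.566 in limma, so the difference did not pass. Under the alternatives it ran from -1.16 to -0.94 and passed in none. Dye, dose and tissue cannot be told apart in it.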

How the results depend on the processing

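Of the alternative values of the 3 genes, 949 kept their direction and side of the threshold, 79 lost a call, 6 gained one and 27 changed sign, none of them in a difference that passed. The Ccn5 rise in lung at 12 h over control was 1.08 without the replicate block, with only the groups compared and with robust empirical Bayes and a trend, 1.01 with the array set as a block and 1.07 without the 4 lung arrays, and it missed the threshold in all of them (adjusted p = 0.656, 0.655, 0.0902, 0.442 and 0.384). Over 1 h it was 1.20 in the first 3 settings, 1.14 with the array set as a block and 1.20 without the 4 lung arrays, and missed it too (0.313, 0.413, 0.0661, 0.285 and 0.319). Leaving out an array or a strain moved these values from 0.99 to 1.16 and from 1.13 to 1.28.

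Without the 4 lung arrays Ccn4 was lost as a strain difference (1.60 for C3H/HeMs over A/J, 1.17 over C57BL/6J, F = 32.8, adjusted p = 0.0846), and with the array set as a block over C57BL/6J (1.16). Leaving out arrays gave 1.46 to 1.68 and 0.94 to 1.17. For Ccn5, C3H/HeMs over C57BL/6J was lost with robust empirical Bayes (0.66), the array set (0.61) and without the 4 arrays (0.71), and the F test likewise (13.1, 22.1 and 42.7). Leaving out arrays gave 0.61 to 0.71 and F of 13.1 to 29.5. Ccn5 over A/J passed with no centring (0.74), quantile scaling (0.69), ratios at 0 or the limits missing (0.73) and the array set (0.70). Ccn1 at 72 h over 1 h passed with quantile scaling (1.10) and with each probe its own feature (1.11). Ccn5 in control skin against lung was -0.64 and lost without the replicate block and without the 4 arrays, with -0.95 to -0.48 when arrays or strains were left out.

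The sign changed for Ccn5 in C57BL/6J minus A/J lung with quantile scaling (-0.027, and -0.025 to 0.14 when arrays or strains were left out). Leaving out arrays or strains also turned Ccn4 in lung at 1 h (-0.26 to 0.11). In skin it turned Ccn1 at 1 h (-1.07 to 1.07), 12 h (-1.71 to 0.14) and 72 h (-1.59 to 0.044), Ccn4 at 1 h (-0.51 to 0.19) and 72 h (-0.67 to 0.00336), and Ccn5 at 1 h (-0.68 to 0.20) and 72 h (-0.11 to 0.36). Ccn1 in control skin against lung ran from -0.49 to 1.09. The turns of Ccn1 in skin at 12 h and 72 h came without the C3H/HeMs control, and at 12 h also without the C57BL/6J 12 h array.

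The number of features that passed moved more. In lung at 1 h it went from 1 to 0 with only the groups compared and without the 4 arrays. At 12 h it went from 10 to 0 in those settings and 6 with the array set, at 72 h from 10 to 6 without the replicate block and 0 in those 3 settings, and for 12 h over 1 h from 6 to 0, 0 and 2. For 72 h over 1 h it went from 2 to 0 in those 3 settings, 6 with quantile scaling and 5 by probe. Over the strains in lung it went from 258 to 91 with the array set and 10 without the 4 arrays. For C57BL/6J against A/J it went from 322 to 40, 11 and, with ratios at 0 or the limits missing, 166. For C3H/HeMs against A/J it went from 37 to 70, 6 and, with quantile scaling, 59, and for C3H/HeMs against C57BL/6J from 159 to 42 and 20. In skin, 12 h over 1 h went from 1 to 0 without the replicate block and with only the groups compared and to 2 with quantile scaling, the strain count from 33 to 52 by probe, and 12 h over control from 0 to 1 with robust empirical Bayes. Leaving out arrays or strains gave 0 to 1 feature in lung at 1 h, 0 to 10 at 12 h, 0 to 8 at 72 h, 0 to 9 for 12 h over 1 h and 0 to 41 for 72 h over 1 h. It gave 54 to 172 for lung strains, 17 to 384, 0 to 32 and 44 to 135 for the pairs in the order above, 5 to 459 for skin strains, and 0 to 1 for each time comparison in skin. The replicate block changed no other call of a CCN gene. With 3 pools per group and 1 pool per strain and time, the number of arrays limits the precision.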
